A study of Mus musculus with 9 samples.

Results

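Nucleoporins, importins, exportins and the Ran switch form the machinery that carries protein and RNA between nucleus and cytoplasm. The members were taken by gene symbol from the deposited count table: all symbols that begin with Nup, Kpna, Ipo, Xpo or Tnpo followed by a digit, with Kpnb1, Pom121, Ndc1, Tpr, Cse1l, Ran and Rcc1, and without the pseudogene row Kpna2-ps. This gave 49 of the 46078 genes in the table. The libraries were made from 6 T cell lymphomas induced by MYCN and collected from the thymus (lymphoma 34, 53, 56, 70, 72 and 86) and from 3 preparations of CD4+ T cells from the spleen (CD4 1, 2 and 3), all of strain C57BL/6J. Transcript 3′ ends were sequenced. The labels give no age, sex, treatment or promoter for MYCN, and are silent on whether tumours share an origin or CD4 preparations an animal. The p-values therefore measure only the spread between these samples, which may be technical.

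The nuclear pore is a ring of repeated subunits set in the nuclear envelope. Outer rings of the Y complex and an inner ring form the scaffold, membrane proteins anchor it, and proteins rich in phenylalanine-glycine repeats fill the channel. Importins bring in cargo and release it on meeting Ran bound to GTP, whereas exportins carry cargo out together with Ran-GTP. RCC1 loads Ran with GTP on chromatin, so that the nucleus is rich in Ran-GTP and transport has a direction.

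The CD4 libraries held 8099960 to 10808828 counts in genes and the lymphomas 11170704 to 15769679, so depth differed with group. The part of depth in the results below was not tested. For the marker lists that follow, 24.7% of all 15401 tested genes were higher in lymphoma and 21.9% lower. Of 10 T cell markers, 1 was higher in lymphoma (Zap70, log2 fold change 0.77), 2 were lower (Cd2 at -1.15 and Cd28 at -0.84) and 7 did not pass, among them Cd3d, Cd3e and Cd3g (edgeR adjusted p 0.711, 0.460 and 0.230). Their summed level was 3172 to 3540 per 1000000 gene counts in CD4 and 2307 to 4278 in lymphoma. Of 13 B cell markers 13 were lower in lymphoma, with a summed level of 3175 to 3676 per 1000000 gene counts in CD4 and 256 to 459 in lymphoma. Of 10 myeloid markers 6 were lower, with sums of 706 to 1075 and 155 to 289. Of 20 proliferation markers 20 were higher, with sums of 397 to 493 in CD4 and 3720 to 4623 in lymphoma. Of 11 stromal and thymic epithelial markers 5 were tested and 2 were higher, with sums of 29.5 to 37.0 in CD4 and 35.4 to 97.5 in lymphoma, and Dcn, Foxn1, Krt5 and Krt8 were at 0 in every CD4 library. Of 9 erythroid markers 7 were tested and 0 passed, with sums of 78.4 to 256 in CD4 and 10.1 to 587 in lymphoma. Xist, transcribed from the inactive X of females, had 64 to 176 counts in the lymphomas and 4848 to 6162 in CD4, and the Y-linked Ddx3y had 1646 to 2905 and 2 to 8, so these markers of sex also differed with group. The part of tissue, sex, cell cycle and other cells in the results below was not tested, and fewer cells of a type cannot be told apart from less RNA per cell. Lymphoma 53 stood apart from the other lymphomas: 5.27% of its gene counts were mitochondrial, against 8.94 to 12.4% in the others and 11.3 to 14.8% in CD4, and members for which it lay far from the other tumours are also given without it.

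Of the 49 members, 47 passed the filter on low counts. Nup62cl had 0 counts in each library, which allows a level of up to 0.370 per 1000000 gene counts in the shallowest library, and Kpna7 had at most 3 counts. Of the 47 tested members, 31 rose and 4 fell in lymphoma by edgeR's quasi-likelihood test at an adjusted p under 0.05, while 12 did not pass. Over all 15401 tested genes, 46.6% passed, 24.7% higher and 21.9% lower. A rise of at least 2-fold that also passed the test was found for 24 members and for 17.9% of all tested genes. All 6 lymphomas lay above all 3 CD4 libraries for 31 members and below them for 3, where 22.6% and 22.3% of all tested genes were of these kinds (44.9% in either direction). The median log2 fold change of the tested members was 1.06, beside 0.04 over all tested genes. With upper quartile scaling the latter was -0.06.

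**Figure D1:**
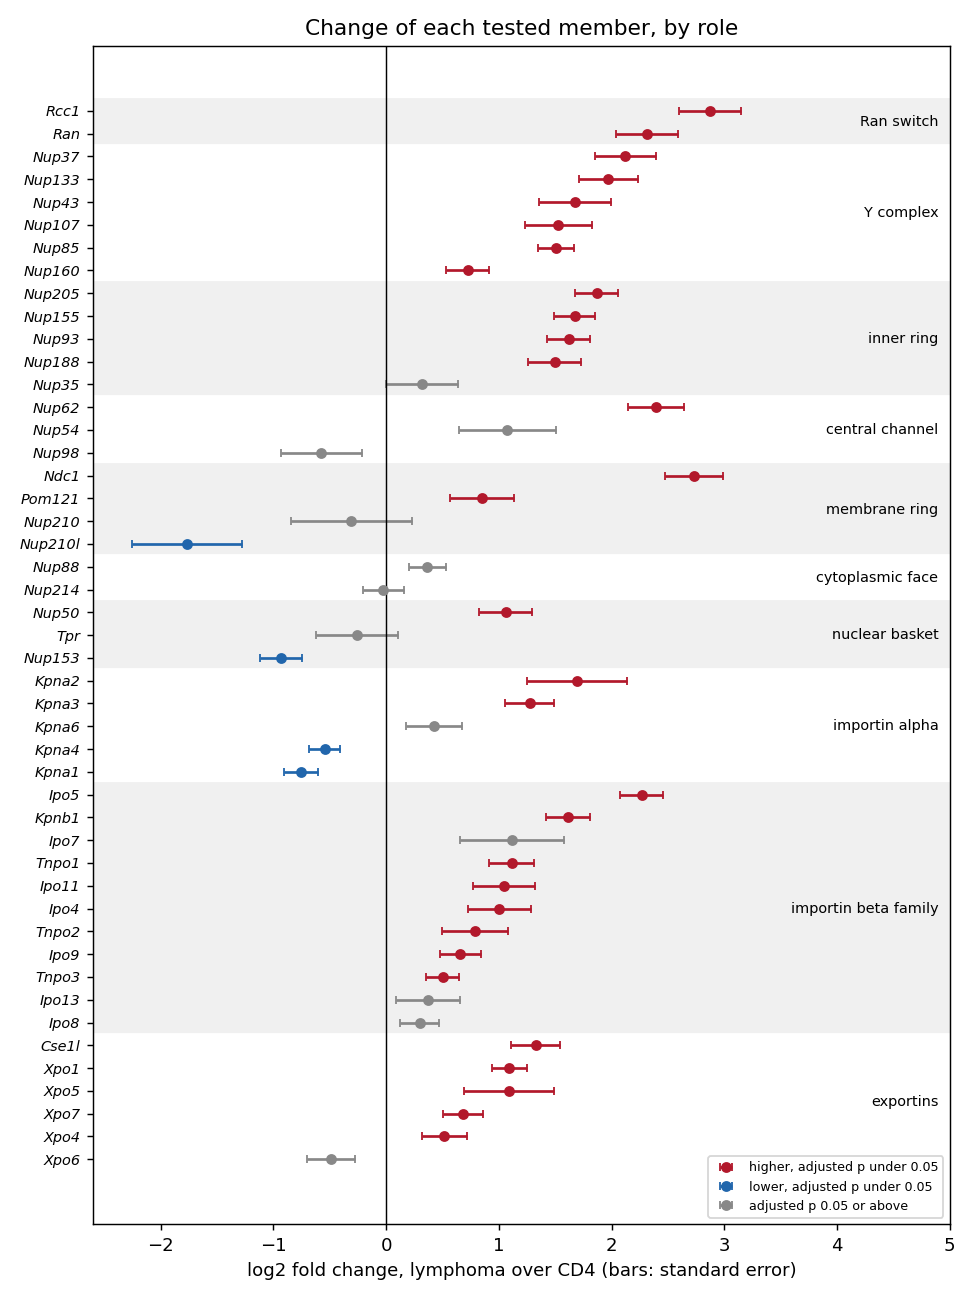
Fitted log2 fold change of lymphoma over CD4 for the 47 tested members (x axis), grouped by role, with bars of 1 standard error. Red marks the 31 higher members, blue the 4 lower and grey the 12 that did not pass; the Ran switch, the Y complex and most of the inner ring lie right of 0, while the nuclear basket and importin alpha are mixed.

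**Figure D2:**
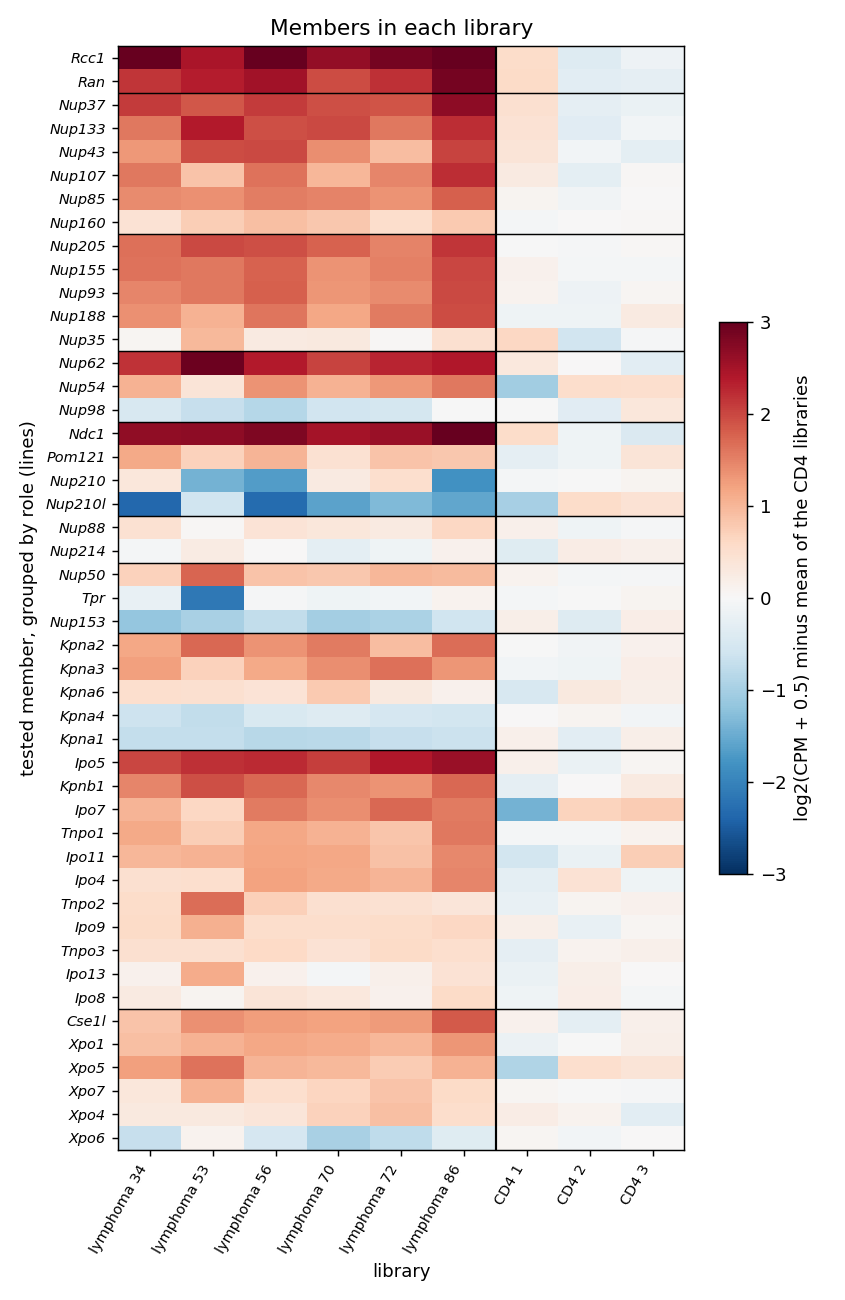
Level of each tested member in each of the 9 libraries, as log2(CPM + 0.5) minus the mean of the 3 CD4 libraries, with rows grouped by role. Most rows are red across all 6 lymphomas; Tpr is deep blue in lymphoma 53 alone and Nup210 is blue in lymphomas 53, 56 and 86.

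Sequence before the start of the genes was examined because many members rose together. RefSeq windows of GRCm38.p6, from 250 bases before to 50 after a start, were at hand for 39 of the 49 members in 46 windows. MYC family proteins are known to bind the E-box CACGTG. It was present on either strand in 7 of the 46 windows (15.2%), beside 9.64% of 12554 windows of tested genes and 7.15% of all 32851 windows. By member, 5 of the 25 with a window that rose held it, 2 of the 10 that did not pass and 0 of the 2 that fell. The 4 risers with an E-box clear of the transcribed region are shown for that box with up to 20 bases on either side and the E-box in capitals.
Ran (chr5:129020018-129020063, + strand): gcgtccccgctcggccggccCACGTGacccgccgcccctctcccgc
Nup188 (chr2:30286330-30286375, + strand): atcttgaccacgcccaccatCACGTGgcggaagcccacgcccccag
Nup93 (chr8:94214369-94214414, + strand): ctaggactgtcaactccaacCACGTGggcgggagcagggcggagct
Tnpo2 (chr8:85036718-85036802, + strand): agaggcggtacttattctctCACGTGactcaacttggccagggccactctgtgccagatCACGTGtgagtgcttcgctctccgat
The first base of the E-box lay 118 bases before the start in Ran, 66 in Nup188 and 175 in Nup93, and Tnpo2 held a pair at 155 and 116. Nup188 held another at 24 bases before the RefSeq start, which reaches into the GENCODE gene and is not shown. The other risers with a window, Rcc1, Kpnb1 and Ndc1 among them, had no CACGTG in it.

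Other motifs were searched after the members' values had been seen. GCGCATG, the core of the palindromic site of nuclear respiratory factor 1, was chosen as a shorter form once a longer one had been looked at. On either strand it was in 8 of the 46 windows (17.4%), beside 6.75% of windows of tested genes and 3.91% of all windows. The 8 members, Ran, Rcc1, Nup62, Nup50, Nup107, Nup133, Nup188 and Xpo5, were all among those that rose. Of the 39 members with a window 25 rose, so most members with any motif would be risers. As the motif was chosen with the values known, the match is not a test. The 6 with a copy clear of the transcribed region are shown with the motif in capitals, and a longer run in capitals is a pair of overlapping copies on opposite strands.
Ran (chr5:129019931-129019980, + strand): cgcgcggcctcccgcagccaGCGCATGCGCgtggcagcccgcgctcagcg
Nup62 (chr7:44816048-44816087, + strand): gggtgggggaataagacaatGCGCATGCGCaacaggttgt
Nup50 (chr15:84923241-84923352, + strand): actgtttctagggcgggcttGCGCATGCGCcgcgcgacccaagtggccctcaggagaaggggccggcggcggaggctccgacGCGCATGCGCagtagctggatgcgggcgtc
Nup107 (chr10:117792741-117792790, - strand): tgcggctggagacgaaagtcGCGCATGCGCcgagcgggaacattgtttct
Nup133 (chr8:123949294-123949340, - strand): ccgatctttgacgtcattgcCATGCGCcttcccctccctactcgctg
Xpo5 (chr17:46202706-46202778, + strand): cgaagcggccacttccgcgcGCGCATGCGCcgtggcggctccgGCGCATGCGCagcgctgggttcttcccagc
Nup50 and Xpo5 held 4 copies each on the 2 strands together. The pentamer CCAAT was in 24 windows (52.2%, beside 37.3% of windows of tested genes) and CCGGAAG, a core of ETS sites, in 7 (15.2%, beside 17.0%). These matches describe the letters only.

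Both genes of the Ran switch rose, where 24.7% of all tested genes were higher. Ran (ENSMUSG00000029430, chr5:129020069-129024323), the GTPase, stood at 238, 127 and 132 CPM in CD4 1, 2 and 3 and at 619 to 1156 CPM in the lymphomas with a median of 771 CPM. CPM is the count per 1000000 of the TMM-scaled library size. Every lymphoma exceeded the highest CD4 library by more than 2-fold, and the log2 fold change was 2.32 (SE 0.272, edgeR adjusted p 3.79e-05). Rcc1 (ENSMUSG00000028896, chr4:132331919-132353605), the exchange factor that loads Ran with GTP, stood at 29.6, 15.1 and 18.1 CPM in CD4. In the lymphomas it ranged from 112 CPM in lymphoma 53 to 202 CPM in lymphoma 86 with a median of 157 CPM. The groups lay far apart, and Rcc1 had the largest rise of all members (log2 fold change 2.87, SE 0.277, edgeR adjusted p 8.96e-06). For both genes CD4 1 was the highest control and lymphoma 86 the highest tumour.

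All 6 Y complex subunits that the symbol rule covers rose, where 24.7% of all tested genes were higher. Their libraries did not overlap between groups, as held in that direction for 22.6% of all tested genes. Of the subunits the symbol rule does not cover, Seh1l rose without overlap, Sec13 rose with overlap and Ahctf1 did not pass (edgeR adjusted p 0.723). The Y complex forms the outer rings on both faces of the pore and also works at kinetochores in mitosis. Nup37 rose most. It had 16.6, 9.60 and 10.2 CPM in CD4, and 44.5 to 78.0 CPM with a median of 49.2 in lymphoma (log2 fold change 2.12, SE 0.267, edgeR adjusted p 6.1e-05). Lymphoma 86 lay well above the other tumours, which ended at 52.2 CPM. Nup133 (1.97), Nup43 (1.68), Nup107 (1.53) and Nup85 (1.51) followed on the log2 fold change scale. Nup160 rose least, by 0.72 (SE 0.191, edgeR adjusted p 0.00846), with lymphomas at 28.9 ± 3.58 CPM (SD, n = 6) and controls at 17.5 ± 0.612 CPM (SD, n = 3). Nup107 varied most within the tumours, from 57.5 CPM in lymphoma 53 to 149 CPM in lymphoma 86.

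The inner ring lines the membrane and holds the channel proteins. In it 4 of 5 members rose, where 24.7% of all tested genes were higher. Nup205, a large scaffold subunit, had 20.4, 19.9 and 21.0 CPM in CD4 and 58.1 to 92.6 CPM with a median of 75.1 in lymphoma. The lowest tumour, lymphoma 72, was thus above 2-fold of every control, and the log2 fold change was 1.87 (SE 0.190, edgeR adjusted p 1.33e-05). Nup155, Nup93 and Nup188 rose by 1.67, 1.62 and 1.49 on the log2 scale. The exception was Nup35, a membrane-binding subunit. It had 18.2, 7.80 and 11.4 CPM in CD4 and 12.1 to 23.7 CPM in lymphoma, with overlap (log2 fold change 0.32, SE 0.323, edgeR adjusted p 0.451).

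The channel and membrane proteins split. Nup62, a channel protein with phenylalanine-glycine repeats that forms the central plug, had 47.0, 38.4 and 30.3 CPM in CD4 and 157 to 297 CPM with a median of 194 in lymphoma (log2 fold change 2.39, SE 0.244, edgeR adjusted p 1.35e-05). All tumours were above all controls, and without lymphoma 53, the highest, the log2 fold change was 2.25. Nup54, its partner, had 1.91, 6.60 and 6.51 CPM in CD4 and 5.94 to 14.2 CPM in lymphoma. The log2 fold change was 1.08 with an SE of 0.433 and did not pass (edgeR adjusted p 0.0593). It passed without lymphoma 53 (1.19, edgeR adjusted p 0.0228), the tumour with the lowest level. Nup54 also passed with DESeq2, with limma voom and with the trend of the libraries with GC content and transcript length removed. Nup98, whose gene also encodes the Y complex subunit NUP96, was thinly counted at 41 to 89 counts a library. It had 6.30, 4.92 and 8.16 CPM in CD4 and 3.27 to 6.28 CPM in lymphoma, and did not pass (log2 fold change -0.57, SE 0.359, edgeR adjusted p 0.213). A separate Nup96 row was not present, so the rise of the Y complex does not cover this subunit.

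Ndc1 (ENSMUSG00000028614, chr4:107367784-107416346), a membrane protein needed to insert new pores, had 14.4, 8.88 and 7.06 CPM in CD4 and 57.3 to 86.1 CPM with a median of 64.4 in lymphoma. The groups lay far apart, and Ndc1 had the second largest rise of the members (log2 fold change 2.73, SE 0.260, edgeR adjusted p 8.26e-06). Pom121, another membrane subunit, rose by 0.85 (SE 0.281, edgeR adjusted p 0.0264). That call was lost without CD4 1 (edgeR adjusted p 0.0876), without CD4 2 (0.0836), with no filter on low counts (0.0506) and with the trend of the libraries with GC content and transcript length removed (0.0726). Nup210l, a paralogue of Nup210 known from testis, fell by 1.77 on the log2 scale (SE 0.485, edgeR adjusted p 0.0106), from 5.63, 17.3 and 15.9 CPM in CD4 to 1.87 to 7.58 CPM in lymphoma. The groups overlapped through CD4 1 and lymphoma 53, and the call was lost without CD4 2 (0.0625) or CD4 3 (0.0518).

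**Figure D3:**
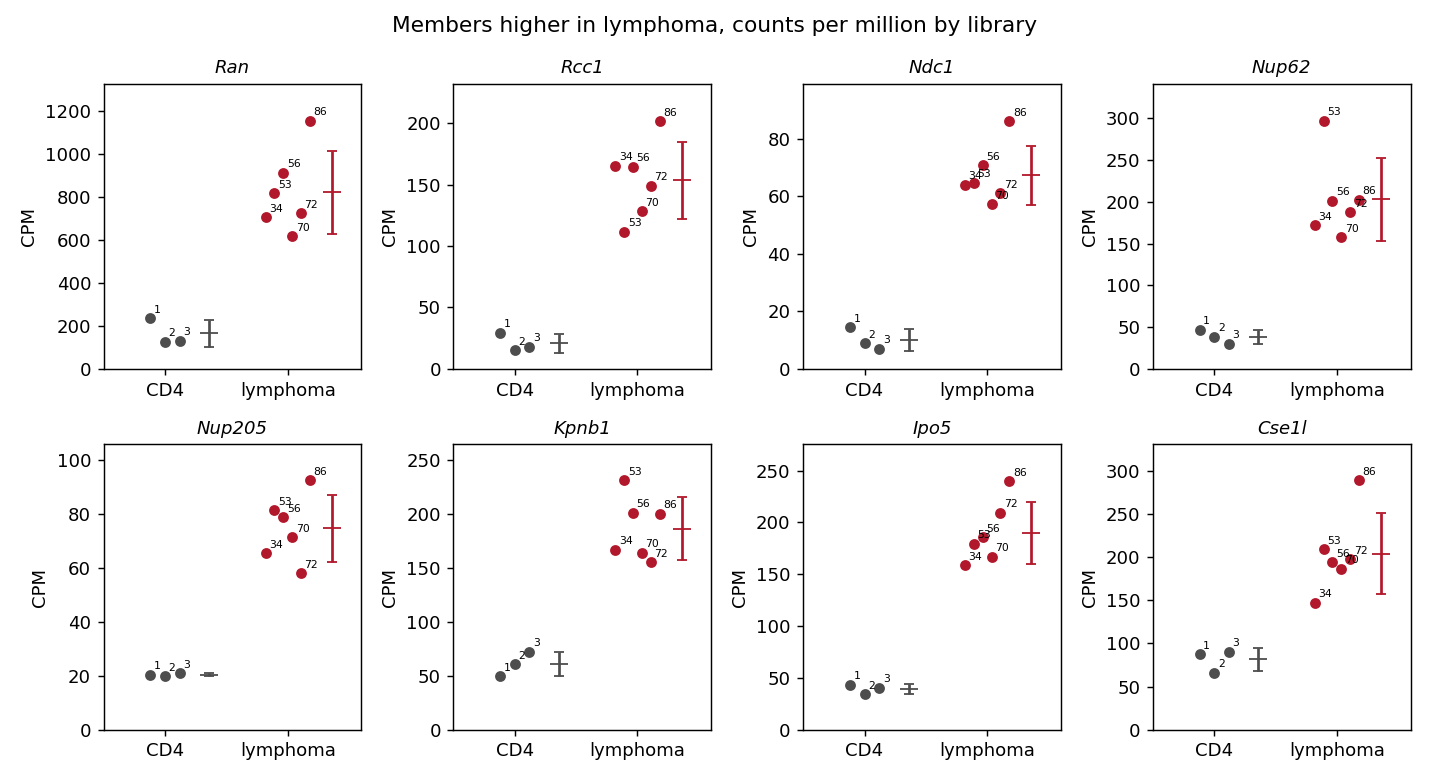
CPM of 8 members in each library (points, numbered as the libraries), with mean and SD beside them. For Ran, Rcc1, Ndc1, Nup62, Nup205, Kpnb1, Ipo5 and Cse1l all 6 lymphomas lie above all 3 CD4 libraries.

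Nup210 (ENSMUSG00000030091, chr6:91013068-91116829), a pore membrane protein whose level differs between cell types and which is known from muscle and T cells, was the member with the widest spread among tumours. It had 117, 121 and 129 CPM in CD4. Lymphomas 34, 70 and 72 had 154, 146 and 174 CPM, above every control, while lymphomas 53, 56 and 86 had 45.6, 37.9 and 34.3 CPM, below every control. The highest tumour was 5.07-fold above the lowest, where the median over the tested members was 1.76-fold. With the tumours on both sides of the controls, the group test did not pass (log2 fold change -0.31, SE 0.536, edgeR adjusted p 0.671), and the mean of 98.6 ± 65.7 CPM (SD, n = 6) lies between the higher and the lower tumours. With 1 lymphoma left out the log2 fold change ranged from -0.55 without lymphoma 72 to -0.10 without lymphoma 86, and did not pass. A chi-square per gene was taken over the tested genes that reached a minimum count in a pair. By it, lymphomas 70 and 72 were the closest pair of tumours (20.8). Lymphoma 34 was nearer to lymphoma 56 (25.9) than to lymphoma 70 (34.2) or 72 (34.9). Counting lymphomas 34, 70 and 72 as 1 averaged library, a grouping chosen after seeing the data, gave Nup210 a log2 fold change of -0.79, which did not pass. These are the tumours above every control, so averaging them had to lower the value, and nothing is concluded from it. T cell receptor genes also differed between the tumours. Trdc, the delta constant gene, had 4351 and 3600 counts in lymphomas 56 and 86 and 3 to 9 counts in the other lymphomas. Trbc1, a beta constant gene, had 23847, 29979 and 24355 counts in lymphomas 34, 70 and 72, the tumours high in Nup210. It had 56, 8475 and 6071 counts in lymphomas 53, 56 and 86. A link between Trbc1 and Nup210 was not tested. Trbc2, the other beta constant gene, had 39711 counts in lymphoma 53 and 13081 to 26801 in the other lymphomas.

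At the cytoplasmic face, neither member passed. Nup88 had 77.2, 63.0 and 68.0 CPM in CD4 and 71.3 to 106 CPM in lymphoma (log2 fold change 0.36, SE 0.164, edgeR adjusted p 0.0894). It passed without lymphoma 53 (0.42, edgeR adjusted p 0.0228) and with the GC and length trend removed. Nup214, the other filament subunit and a partner in leukaemia fusions, had 57.9, 87.2 and 82.8 CPM in CD4 and 60.9 to 89.2 CPM in lymphoma. The ranges nearly coincided (log2 fold change -0.03, SE 0.181, edgeR adjusted p 0.917), and the sign changed with the setting.

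The nuclear basket, which faces chromatin, had members that moved in opposite directions. Nup50, a cofactor of importin alpha, had 90.5, 80.8 and 82.7 CPM in CD4 and 138 to 285 CPM with a median of 159 in lymphoma (log2 fold change 1.06, SE 0.233, edgeR adjusted p 0.00287). Lymphoma 53 was the highest, and without it the log2 fold change was 0.87 (edgeR adjusted p 0.000140). Nup153, which anchors the basket, fell. It had 72.9, 49.4 and 74.0 CPM in CD4 and 28.4 to 42.3 CPM with a median of 32.7 in lymphoma, so that every tumour lay under every control (log2 fold change -0.93, SE 0.187, edgeR adjusted p 0.00160). Nup153 kept its call in all 19 alternatives, and its log2 fold change stayed between -1.09 and -0.68. Tpr, the long coiled-coil protein of the basket, had 957, 997 and 1063 CPM in CD4. It had 864 to 1084 CPM in 5 lymphomas and 228 CPM in lymphoma 53. The group test did not pass (log2 fold change -0.26, SE 0.361, edgeR adjusted p 0.591), and without lymphoma 53 the log2 fold change was -0.07 (edgeR adjusted p 0.651), and with the GC and length trend removed it was 0.09.

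**Figure D4:**
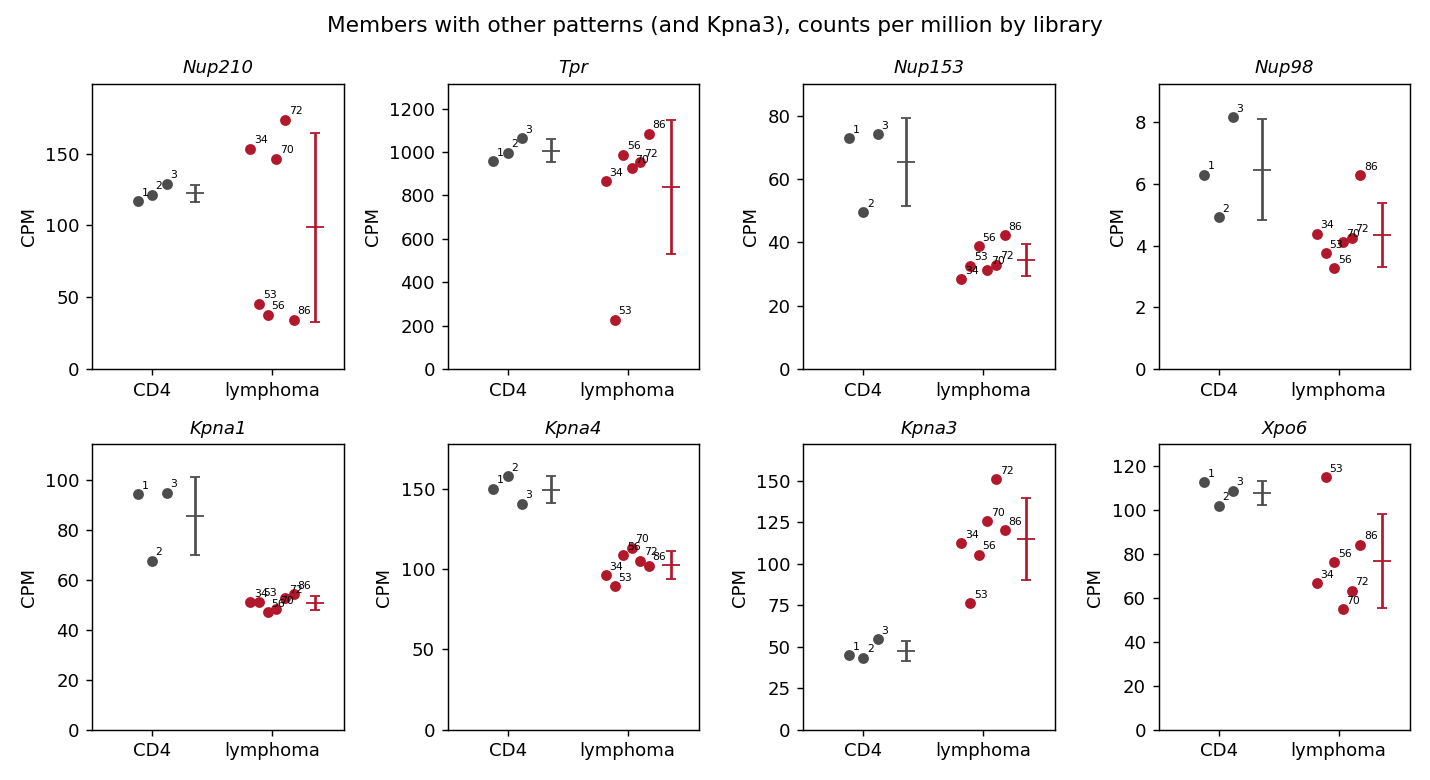
CPM by library for 7 members that fell or did not pass and for Kpna3, drawn as in the plot of the risers. Nup210 splits the tumours into 34.3 to 45.6 CPM and 146 to 174 CPM around the CD4 libraries, Tpr is low in lymphoma 53 alone, and all tumours lie under all controls for Nup153, Kpna1 and Kpna4.

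The importin alpha proteins bind nuclear localisation signals and hand the cargo to importin beta. Of 6 genes 5 were tested, 2 rose and 2 fell, where 24.7% of all tested genes were higher and 21.9% lower. Kpna3 had 45.0, 43.3 and 54.6 CPM in CD4 and 76.3 to 151 CPM with a median of 116 in lymphoma (log2 fold change 1.27, SE 0.215, edgeR adjusted p 0.000506). Kpna2, the importin alpha tied to cycling cells, rose by 1.69 (SE 0.440, edgeR adjusted p 0.00780), but with only 11 to 18 counts in CD4 and 49 to 86 in lymphoma. The table sets reads that align to several places apart from the genes, and it lists a Kpna2 pseudogene (0 counts), so the level of Kpna2 is uncertain. Kpna1 fell by 0.75 (SE 0.154, edgeR adjusted p 0.00178), from 94.3, 67.6 and 94.8 CPM in CD4 to 47.1 to 54.3 CPM in lymphoma. Kpna4 fell by 0.55 (SE 0.138, edgeR adjusted p 0.00664), from 150, 158 and 141 CPM to 89.3 to 113 CPM. Neither gene's groups overlapped, as held in that direction for 22.3% of all tested genes. Neither fall passed with the trend of the libraries with GC content and transcript length removed, where Kpna1 stood at -0.39 (edgeR adjusted p 0.0680) and Kpna4 at 0.10 (0.591). Kpna6 did not pass (log2 fold change 0.42, SE 0.247, edgeR adjusted p 0.184).

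As a share of all importin alpha counts, Kpna3 made up 15.9% ± 1.55 (SD, n = 3) in CD4 and 38.9% ± 4.70 (SD, n = 6) in lymphoma. Kpna4 went from 45.6 to 54.7% in CD4 to 31.9 to 38.0% in lymphoma, and Kpna1 from 28.5% ± 4.38 to 17.4% ± 2.09. The summed counts of the family per 1000000 gene counts were 297 to 311 in CD4 and 239 to 336 in lymphoma, so the sum overlapped. The shares of Kpna1, Kpna2, Kpna3 and Kpna4 did not overlap between groups, while those of Kpna6 (3.49 to 6.33% in CD4 and 5.46 to 8.47% in lymphoma) and Kpna7 did. No test was applied to these shares.

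**Figure D5:**
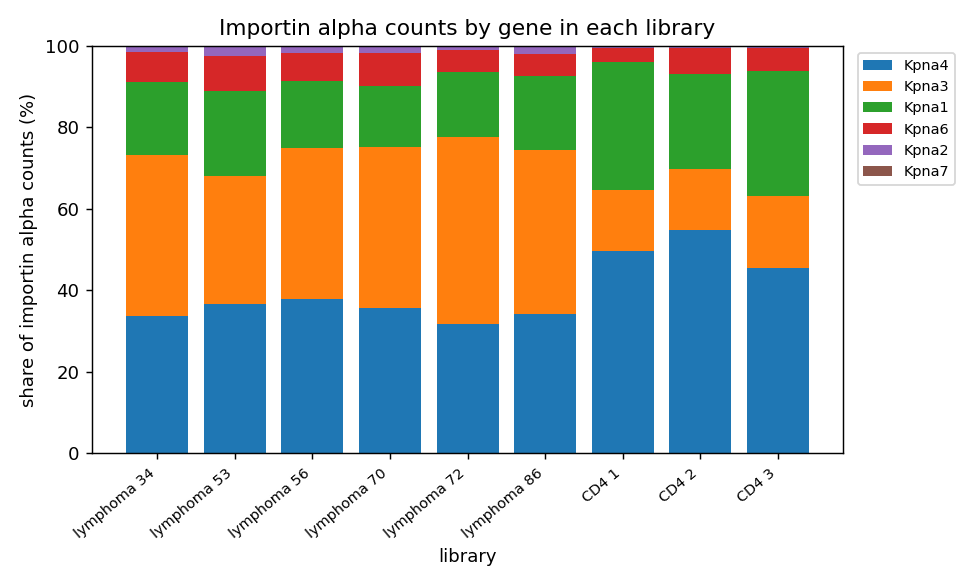
Share of importin alpha counts from each of the 6 Kpna genes (stacked bars, percent) in each library. Kpna4 is the largest part of every CD4 bar, and Kpna3 takes 31.3 to 45.7% of each lymphoma bar against 15.0 to 17.7% in CD4.

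Of all tested genes 24.7% were higher and 21.9% lower, and 22.6% lay above CD4 without overlap. Import receptors of the importin beta family mostly rose, with 8 of 11 past the test, 0 lower and no overlap between groups among those 8. Ipo5, which carries histones and ribosomal proteins, rose most. It had 43.5, 34.2 and 40.5 CPM in CD4 and 159 to 240 CPM with a median of 183 in lymphoma (log2 fold change 2.27, SE 0.190, edgeR adjusted p 3.22e-06). Kpnb1 (ENSMUSG00000001440, chr11:97159714-97187881), importin beta itself, had 49.5, 60.8 and 72.3 CPM in CD4 and 155 to 231 CPM with a median of 183 in lymphoma (log2 fold change 1.61, SE 0.195, edgeR adjusted p 4.53e-05). For both, the lowest tumour was more than 2-fold above the highest control. The transportin Tnpo1, which carries proteins such as the hnRNPs, rose by 1.11 (SE 0.200, edgeR adjusted p 0.000778), Ipo11 rose by 1.04 (0.00856), and Ipo4 also passed (0.0118).

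Smaller rises in this family rested on few controls. Tnpo3, the receptor of SR splicing factors, rose by 0.50 (edgeR adjusted p 0.0147) and Ipo9 by 0.66 (0.0118). The calls were lost without CD4 1 for Tnpo3 (0.0605), without CD4 2 for Ipo9 (0.0566) and without CD4 3 for Ipo4 (0.0520), which also lost it with the GC and length trend removed (0.0507). Lymphoma 53 was the highest for Ipo9, whose log2 fold change was 0.56 without it. Tnpo2 rose by 0.79 (SE 0.291, edgeR adjusted p 0.0427), with 187 CPM in lymphoma 53 and 75.3 to 96.5 CPM in the others. Without lymphoma 53 the log2 fold change was 0.51 and passed (edgeR adjusted p 0.0102). The call was lost without lymphoma 56 (0.0526), CD4 1 (0.126), CD4 2 (0.0944) or CD4 3 (0.0787). RLE scaling, upper quartile scaling, library size alone and limma voom also lost it. Ipo7, Ipo13 and Ipo8 did not pass, at log2 fold changes of 1.12, 0.37 and 0.30 (edgeR adjusted p 0.0647, 0.313 and 0.178). Without lymphoma 53, Ipo13 stood at 0.16. Ipo7 had 2.39, 11.8 and 12.7 CPM in CD4 and 11.4 to 25.1 CPM in lymphoma, and passed without lymphoma 53 (1.22, edgeR adjusted p 0.0331). Ipo7 also passed with DESeq2 and limma voom, and both Ipo7 and Ipo8 passed with the GC and length trend removed.

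Of the 6 exportins 5 rose and 0 fell, where 24.7% of all tested genes were higher and 21.9% lower. Cse1l, which returns importin alpha to the cytoplasm, had 87.6, 66.2 and 90.4 CPM in CD4 and 147 to 289 CPM with a median of 196 in lymphoma (log2 fold change 1.33, SE 0.218, edgeR adjusted p 0.00042). Xpo1 (ENSMUSG00000020290, chr11:23256041-23298249), the main exporter of proteins with leucine-rich export signals and the target of selinexor, had 105, 118 and 134 CPM in CD4. In lymphoma it had 221 to 299 CPM with a median of 250, again without overlap (log2 fold change 1.09, SE 0.157, edgeR adjusted p 0.000162). Xpo7 rose by 0.68 (SE 0.179, edgeR adjusted p 0.00847).

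Xpo5, the exporter of pre-miRNAs, and Xpo4 were close to the threshold. Xpo5 had 2.0, 6.12 and 5.60 CPM in CD4 and 7.40 to 13.9 CPM in lymphoma (log2 fold change 1.09, SE 0.399, edgeR adjusted p 0.0415). Its call was lost without lymphoma 34, 53, 56 or 86 and without CD4 1 or 3 (edgeR adjusted p up to 0.110). RLE scaling, upper quartile scaling and leaving off the filter on low counts also lost it. Xpo4 rose by 0.52 (SE 0.198, edgeR adjusted p 0.0492), and its call was lost without lymphoma 56, 70, 72 or 86 and without CD4 2 or 3 (0.0513 to 0.197). The Xpo4 call was also lost with RLE or upper quartile scaling, library size alone and DESeq2. The same held with no filter on low counts and with at least 10 counts asked of every library. Xpo6, the exporter of actin, had 112, 102 and 109 CPM in CD4, 115 CPM in lymphoma 53 and 54.7 to 84.1 CPM in the other tumours. In the main fit Xpo6 did not pass (log2 fold change -0.49, SE 0.215, edgeR adjusted p 0.0802). Without lymphoma 53 it passed at -0.65 (edgeR adjusted p 0.00368). With all libraries it passed under upper quartile scaling, library size alone, a filter of at least 10 counts in every library, and DESeq2. With the GC and length trend removed it stood at -0.03 (edgeR adjusted p 0.944).

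Summed over the 49 members, counts per 1000000 gene counts were 3217, 3133 and 3298 in CD4 1, 2 and 3 and 4836 to 6009 in lymphoma. The ratio of means was 1.65. Tpr alone held a large part of the sum, and without it the sums were 2107 to 2245 in CD4 and 4222 to 5005 in lymphoma, a ratio of 2.05. Without Tpr and Ran the ratio was 1.82. Among the tumours, the tested members varied less than genes at large: the median SD of log2 CPM over the 6 lymphomas was 0.30 for members and 0.47 for all 15401 tested genes, a comparison without a test and one in which level was not matched. The highest tumour was at most 2-fold above the lowest for 35 of the 47 tested members, a count that was not taken over all tested genes.

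For the lists that follow, 24.7% of all tested genes were higher and 21.9% lower. Of 9 pore subunits whose symbols the rule does not cover, 6 rose and 0 fell (median log2 fold change 0.86). Nupl2, a subunit of the cytoplasmic face, rose most (2.05, SE 0.523, edgeR adjusted p 0.00712), and its log2 fold change was 2.70 without CD4 1. Ranbp2, the giant filament protein of the cytoplasmic face, and Ahctf1, which starts pore assembly on chromatin, did not pass (edgeR adjusted p 0.466 and 0.723). Of 8 tested genes of the Ran cycle and other carriers, 5 rose and 0 fell. Ranbp1, which helps Ran to hydrolyse GTP, had 61.4, 61.7 and 67.2 CPM in CD4 and 326 to 616 CPM in lymphoma (log2 fold change 2.81, SE 0.258, edgeR adjusted p 6.38e-06). Ranbp17 had the largest fitted rise of that list (3.67, SE 1.36, edgeR adjusted p 0.0438). It had 0 to 7 counts in CD4 and 2 to 139 counts in lymphoma, with overlap in CPM. Its call was lost without any one of lymphomas 56, 70 and 86 or of the CD4 libraries (edgeR adjusted p 0.0569 to 0.121). Limma voom and leaving off the filter on low counts also lost it. The log2 fold change was 4.67 without CD4 1 and 3.08 without CD4 3.

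Of 21 mRNA export genes 10 rose and 0 fell (median 0.85), where 24.7% of all tested genes were higher and 21.9% lower. Alyref, an adaptor of the TREX complex, rose most (1.71, SE 0.325, edgeR adjusted p 0.00110), whereas Nxf1, the export receptor for mRNA, did not pass (-0.17, SE 0.235, edgeR adjusted p 0.591). Of 15 genes of the lamina and inner envelope 6 rose and 3 fell (median 0.32). The share that fell is near the 21.9% of all tested genes. Lmna, which encodes lamins A and C, had 4.87, 2.40 and 4.95 CPM in CD4 and 20.4 to 64.7 CPM in lymphoma (log2 fold change 3.30, SE 0.403, edgeR adjusted p 4.98e-05). Tor1aip1, a partner of torsin in the inner membrane, fell by 0.70 (SE 0.206, edgeR adjusted p 0.0157), a call lost without CD4 1 (0.0753). The other 2 that fell were Lemd3 and Sun2.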

How the data were processed

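The authors deposited 1 table of raw counts, with a read count per Ensembl gene and library. The submitters' processing notes name FastQC, HISAT2, SAMtools and HTSeq and the builds mm10 and GRCm38. The annotation release and strand setting are not given in the sources used here, so a gene and its antisense partner cannot be told apart: over 5% of exon bases are shared with an opposite gene for Kpnb1, Nup133, Nup188, Pom121 and Tnpo2 in GENCODE M21. Apart from strand, Ipo4 shares 55.3% with Gm49378 on the same strand. The counter's summary lines, such as ambiguous reads, were left out of library sizes. Of all entries, 27.8 to 35.0% fell in genes in CD4 and 38.7 to 49.1% in lymphoma, without overlap. Columns matching no sample numbered 0.

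All 9 libraries entered 1 fit in edgeR 4.0.16 (R 4.3.3), on raw counts: filterByExpr (minimum count 10), TMM, robust glmQLFit and glmQLFTest with no covariate, Benjamini-Hochberg over 15401 genes, threshold 0.05. SE is the absolute log2 fold change over the square root of F. The code was tested on simulated data. DESeq2 1.42.0, limma 3.58.1 voom, other scalings and filters, a GC and length correction (mgcv) and leaving out each library were alternatives. Members and lists were chosen with earlier results of these data known. Named are fixed key members, the largest rise and fall of each role and companion list, and all members that fell or did not pass; others were chosen after their values were seen. Coordinates are from GENCODE M21 (GRCm38) and RefSeq GRCm38.p6. Protein sequences were not used here. The count floor is 3, and it covers counting error only. No pair of libraries agreed within sampling noise.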

Additional observations from a re-analysis of the deposited data

Results flagged for a closer look

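Among the 6 lymphomas, each of the 47 tested members was examined for a tumour far from the rest, by the gap to its nearest neighbour as a share of the whole range (Dixon's 95% limit, 0.625 for 6 samples). This held for 8 members (17.0%), where chance gives 2.35, and for 6 of the 8 the tumour was lymphoma 53. Over all 15401 tested genes it held for 16.8%, and for 70.1% of those the tumour was lymphoma 53, so the members' share is near that of genes at large. Lymphoma 53 was the highest for Nup62 at 297 CPM (157 to 202 in the other lymphomas), for Tnpo2 at 187 CPM (75.3 to 96.5), for Ipo9 at 68.1 CPM (46.4 to 50.2), for Ipo13 at 34.6 CPM (15.3 to 21.5) and for Nup50 at 285 CPM (138 to 169). It was the lowest for Tpr at 228 CPM (864 to 1084). Lymphoma 86 was the highest for Nup98 at 6.28 CPM (3.27 to 4.38) and for Nup37 at 78.0 CPM (44.5 to 52.2). The part of the low mitochondrial share of lymphoma 53 in these values was not tested.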

How the results depend on the processing

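The number of members that changed was 35 with all libraries and 30 to 38 when 1 library was left out (27 to 33 higher, 3 to 5 lower). It was 27 at an adjusted p under 0.01 and 37 with DESeq2. With the GC and length trend removed, 2 members were lower in place of 4, and Kpna4 changed sign to 0.10 (the cause was not tested). The correlation of log2 fold change with log2 transcript length was -0.46 over 46 members and -0.05 over 15329 tested genes. With GC content it was 0.04 and 0.15. The part of transcript length in the differences between members was not tested. Of the 35 called members, 25 kept call and direction in each alternative run for them. The GC and length correction was not run for Nup62, which has no value in the annotation used. The genes of the companion lists that fell numbered 3, but 5 with upper quartile scaling, 5 with DESeq2, 5 with limma voom and 0 at an adjusted p under 0.01, and 0 to 7 with 1 library left out (0 without CD4 1, 7 without lymphoma 53). All genes changed numbered 7174, and 5871 to 8137 with 1 library left out. Averaging lymphomas 34, 70 and 72 into 1 library, chosen after seeing the data, left 33 members. No paired analysis was possible because the groups share no library numbers. Depth limits Kpna2, Nup98, Xpo5 and Nup210l most.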
